A study of Homo sapiens with 4 samples.

Results

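The LIX1 locus lies on the long arm of human chromosome 5, and 7 of the 58174 genes in the deposited tables were followed here. LIX1 and LIX1-AS1, which are transcribed from opposite strands, were chosen by their measured counts in this same comparison, being higher in NIPBL-mutant cells, so their levels in the comparison below are a description and no test is given for them. RIOK2, LNPEP, RGMB and CHD1 were chosen for their position beside them, and LIX1L, on chromosome 1, because it is the paralog of LIX1. The question was how far along the chromosome, and to which relative, the rise extended. The locus itself was taken up because of that rise, so the neighbours' results describe this locus and support nothing beyond it. Each symbol matched 1 gene identifier in GENCODE release 29, and all 7 genes passed the filter on low counts. A gene is said to be called, or to rise or fall, where its adjusted p in the edgeR fit over all tested genes was under 0.05.

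RNA was sequenced from 4 libraries of 293FT, a human embryonic kidney line that carries the SV40 large T antigen. There were 2 libraries labelled NIPBLwt and 2 labelled NIPBLmut, and all came from this line with no treatment named. The labels give neither the kind of NIPBL mutation nor the number of clones. They also do not say whether replicates were separate cultures, so p-values measure only the spread between these libraries, which may be technical. The expected counts summed to between 31545743 and 33161120 per library. CPM is counts scaled to a common library total, here with totals adjusted by the TMM method. At the adjusted totals 1 read was worth 0.0322 and 0.0335 CPM in the wild-type libraries and 0.0296 and 0.0287 CPM in the mutant ones. In bulk RNA a change in the share of cells that express a gene and a change per cell cannot be told apart.

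NIPBL loads cohesin, the ring that extrudes chromatin loops and so brings genes and distant regulatory elements of the same chromosome together. LIX1 encodes a conserved protein first described in the developing limb and nervous system. It also acts in progenitors of stomach smooth muscle, where it has been linked to the co-activator YAP1. RIOK2 is an atypical kinase that matures the precursor of the small ribosomal subunit. LNPEP is a membrane aminopeptidase that cleaves oxytocin and vasopressin. RGMB is a membrane co-receptor for bone morphogenetic proteins, and CHD1 is a chromatin remodeller that binds histone H3 methylated at lysine 4.

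LIX1 (ENSG00000145721) spans chr5:97091867-97142872 on the minus strand of GRCh38. LIX1-AS1 (ENSG00000251513), a non-coding RNA gene, spans chr5:97089075-97437217 on the plus strand and is 348.1 kb long. It starts 2792 bases beyond the 3′ end of LIX1, runs antisense through the whole of LIX1 and the whole of RIOK2 (chr5:97160867-97183260, minus strand), and ends 254 kb beyond the start of RIOK2. None of its 1793 exonic bases lies in an exon of LIX1. Of its 7 exons the 4th shares 233 bases, chr5:97183008-97183240, with exon sequence of RIOK2 on the other strand. LNPEP (chr5:96935394-97037515, plus strand) ends 51.6 kb before LIX1-AS1 begins. RGMB (chr5:98768650-98798643, plus strand) and CHD1 (chr5:98853985-98928957, minus strand) start 1625.8 and 1786.1 kb from the LIX1 start. LIX1L lies at chr1:145933423-145958001 on the minus strand.

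**Figure D1:**
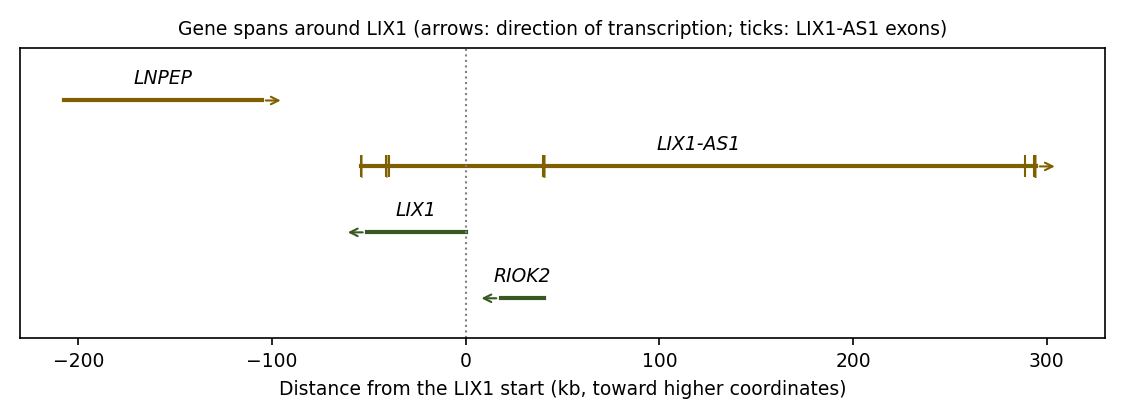
Spans of LNPEP, LIX1-AS1, LIX1 and RIOK2, 1 line per gene, against the distance from the LIX1 start in kb. Arrows show the direction of transcription and ticks the exons of LIX1-AS1; LIX1-AS1 covers LIX1 and RIOK2 whole, and 4 of its exons lie outside RIOK2 and LIX1.

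Parts of both RNAs that rose are shown to make plain that they are separate sequences, each read 5′ to 3′ on its own strand from the GENCODE release 29 transcripts. The LIX1 stretch is exon 2 of 6, coding throughout, at chr5:97124466-97124629. The LIX1-AS1 stretches are exon 3, at chr5:97103026-97103094 inside a LIX1 intron, and exon 5, at chr5:97183505-97183669, which lies upstream of RIOK2 and outside both coding genes.
LIX1 exon 2: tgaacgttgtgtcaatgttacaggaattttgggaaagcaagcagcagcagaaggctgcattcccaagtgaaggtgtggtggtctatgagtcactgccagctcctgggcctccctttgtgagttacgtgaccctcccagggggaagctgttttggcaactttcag
LIX1-AS1 exon 3: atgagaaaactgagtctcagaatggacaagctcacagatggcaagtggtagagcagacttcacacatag
LIX1-AS1 exon 5: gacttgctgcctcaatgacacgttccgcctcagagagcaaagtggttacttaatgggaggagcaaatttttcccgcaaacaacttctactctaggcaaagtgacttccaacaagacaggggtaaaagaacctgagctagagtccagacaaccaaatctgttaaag

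The promoter of RIOK2 is shown because LIX1-AS1 runs through it. The sequence is RefSeq's (GRCh38.p14), chr5:97183198-97183497, minus strand, and the 43 capitals mark the bases that are also part of LIX1-AS1 exon 4, there on the other strand.
RIOK2 promoter: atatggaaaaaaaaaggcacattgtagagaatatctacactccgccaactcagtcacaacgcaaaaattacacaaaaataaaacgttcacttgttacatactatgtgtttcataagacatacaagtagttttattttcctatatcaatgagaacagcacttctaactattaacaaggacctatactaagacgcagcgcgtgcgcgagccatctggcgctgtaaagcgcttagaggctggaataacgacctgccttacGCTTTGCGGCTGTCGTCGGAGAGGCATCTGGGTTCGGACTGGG
RefSeq promoter windows were matched for RIOK2, RGMB, LNPEP, CHD1 and LIX1L. The RIOK2 window held 16 CpG dinucleotides against a median of 14 over the 35116 windows. On either strand it held no TATA box (TATAAA, found in 11.5% of all windows), no CCAAT box (34.6% of all windows hold CCAAT) and no GC box (45.0% hold GGGCGG). An AP-1 motif written TGANTCA, present in 7.7% of all windows, and a TEAD motif written GGAATG, present in 14.0%, were also not among its letters. The searched motifs do not contain one another.

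LIX1 was at a low level in wild-type cells and at a higher one in mutant cells. Its expected counts were 59 and 73.97 in NIPBLwt replicates 1 and 2 and 883 and 902 in NIPBLmut replicates 1 and 2. In CPM, with library totals adjusted by the TMM method, these were 1.90 and 2.48 against 26.1 and 25.9. Both mutant libraries lay far above both wild-type libraries. The group means were 2.19 ± 0.41 and 26.0 ± 0.15 CPM (SD, n = 2 each), a log2 fold change of 3.57 (SE 0.19), or 11.9-fold. The isoform-weighted length deposited for LIX1 was 4026 bases in every library, which is the length of its longer annotated coding transcript. Of the 18984 tested genes 144 had a larger log2 fold change.

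LIX1-AS1 rose with it. Its expected counts were 27 and 22 in wild type and 384.1 and 429.42 in mutant, or 0.870 and 0.736 against 11.4 and 12.3 CPM. The means of 0.803 ± 0.095 and 11.8 ± 0.68 CPM (SD, n = 2 each) gave a log2 fold change of 3.87 (SE 0.22), or 14.7-fold. Again the groups did not overlap. LIX1 and LIX1-AS1 were both among the 704 genes that edgeR called higher, which are 3.71% of all tested genes, while 2.1% were called lower. They were chosen for this, so nothing follows from that count.

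Levels per length can be compared between genes in TPM, which corrects for transcript length. LIX1 was at 0.37 and 0.46 TPM in wild type and 5.73 and 5.70 TPM in mutant, and LIX1-AS1 at 0.39 and 0.32 against 5.72 and 6.22 TPM. The antisense RNA was thus about as abundant as the sense RNA in each library: the ratio of their TPM was 1.05 and 0.696 in wild type, on few reads, and 0.998 and 1.09 in mutant. With the counts of both genes summed into 1 feature, the log2 fold change was 3.66.

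Exons 2 and 3 of LIX1-AS1 lie within LIX1, so reads of unspliced LIX1 RNA could be told from LIX1-AS1 reads there only by strand. The libraries were strand-specific per the labels' protocols, but the strand setting of the counting is not given in the sources used here. Strand handling in exons was looked at with 106 antisense or intergenic non-coding genes. At least 95 percent of their exonic bases lay inside exons of a protein-coding gene on the other strand, itself of at least 20 TPM. The median of these non-coding genes was 0.0275 TPM against 45.5 TPM for the coding genes, and 37 of them were listed at 0 in every library. The median ratio was 0.0374%. Those genes share their bases with exons of the coding gene, whereas exons 2 and 3 of LIX1-AS1 share none with LIX1 exons. Their low values therefore cannot decide how unspliced LIX1 reads were counted. The part of unspliced LIX1 reads in the LIX1-AS1 counts was not tested.

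**Figure D2:**
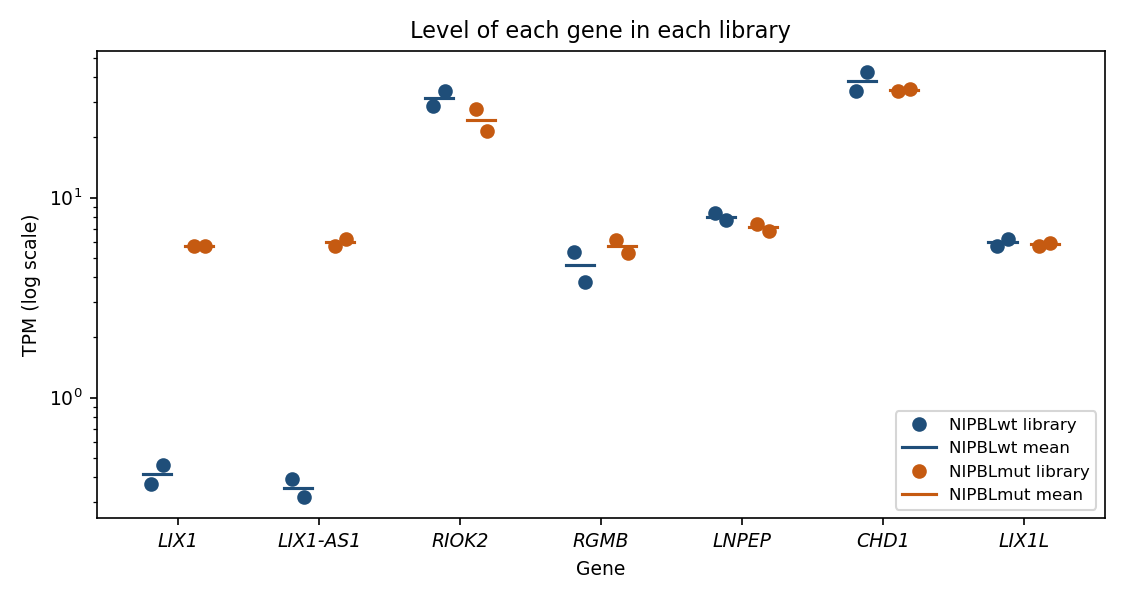
TPM of the 7 genes (log axis) in each library, with NIPBLwt in blue and NIPBLmut in orange; points are libraries and bars the mean of 2. LIX1 and LIX1-AS1 lie below 0.5 TPM in NIPBLwt and near 6 TPM in NIPBLmut, while the other 5 genes lie between 3.8 and 42.4 TPM in all libraries.

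LIX1L, the paralog, was not called. It was at 28.9 and 32.6 CPM in wild type against 25.9 and 26.6 CPM in mutant. The log2 fold change was -0.23 (SE 0.12, 95% interval -0.53 to 0.08, edgeR adjusted p = 0.272), which did not pass the threshold. In TPM LIX1L had 5.75 and 6.19 in wild type and 5.75 and 5.93 in mutant. LIX1 thus had 0.0643 and 0.0743 of the level of its paralog in wild type and 0.997 and 0.961 of it in mutant.

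By TPM the wild-type order of the 7 genes was CHD1 (mean 38.2), RIOK2 (31.3), LNPEP (8.03), LIX1L (5.97), RGMB (4.58), LIX1 (0.415) and LIX1-AS1 (0.355). Ranges of CHD1 and RIOK2 touched, and those of LIX1 and LIX1-AS1 overlapped. In mutant the order was CHD1 (34.6), RIOK2 (24.5), LNPEP (7.12), LIX1-AS1 (5.97), LIX1L (5.84), LIX1 (5.72) and RGMB (5.70). The last 4 did not differ beyond their spread, since all lay between 5.25 and 6.22 TPM.

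The nearest genes were not called in either direction. RIOK2, which starts 40.4 kb from LIX1 and lies wholly inside the span of LIX1-AS1, was at 50.9 and 63.7 CPM in wild type against 49.1 and 44.7 CPM in mutant. The mutant libraries were the lower ones, and the groups did not overlap. The log2 fold change was -0.29 (SE 0.15, 95% interval -0.67 to 0.09, edgeR adjusted p = 0.259) and was not called. The upper bound of the interval corresponds to a 1.06-fold rise. LNPEP, on the other side at 207.5 kb, was at 84.8 and 77.0 CPM in wild type against 64.6 and 64.1 CPM in mutant. The log2 fold change of -0.33 (SE 0.11, 95% interval -0.61 to -0.05) had an unadjusted p of 0.0301 and an edgeR adjusted p of 0.130, so LNPEP was not called.

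RGMB and CHD1, at the far end of the gene-poor stretch above RIOK2, were not called either. RGMB was at 23.0 and 17.2 CPM in wild type against 22.6 and 18.9 CPM in mutant, with overlapping groups. Its log2 fold change was 0.04 (SE 0.19, 95% interval -0.43 to 0.52, edgeR adjusted p = 0.893), and its sign followed single libraries, with -0.15 without NIPBLwt replicate 2 and -0.10 without NIPBLmut replicate 1. CHD1 was at 210 and 276 CPM in wild type against 199 and 204 CPM in mutant. The log2 fold change of -0.27 (SE 0.16, 95% interval -0.67 to 0.13) had an edgeR adjusted p of 0.310, and it was -0.06 without NIPBLwt replicate 2 and -0.47 without NIPBLwt replicate 1. Of these 4 neighbours and LIX1L none was called, against 5.81% of all tested genes by edgeR. DESeq2, which called 13.2% of all tested genes, called none of the 5 either (adjusted p from 0.181 to 0.951), and 1 of them, LNPEP, had an unadjusted p under 0.05 in edgeR, as had 29.8% of all tested genes. Leaving out NIPBLwt replicate 1 gave calls for all 5, at -0.46 for RIOK2, -0.27 for LNPEP, 0.25 for RGMB, -0.47 for CHD1 and -0.33 for LIX1L, and leaving out NIPBLwt replicate 2 gave a call for LNPEP (-0.40). In those fits, which called 11840 and 8320 of all tested genes, the spread comes from the mutant pair alone. In CPM adjusted by TMM the groups did not overlap at RIOK2, LNPEP, CHD1 and LIX1L, nor at 63.2% of all tested genes. In TPM they overlapped at CHD1, at 33.96 and 42.4 in wild type against 34.17 and 35.04 in mutant, and met at 5.75 at LIX1L. With total counts only, log2 fold changes were -0.112 at RIOK2, -0.163 at LNPEP, 0.207 at RGMB, -0.093 at CHD1 and -0.053 at LIX1L.

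A second readout, the isoform-weighted length, was longer at RIOK2 in mutant cells. The deposited length was 1444.52 and 1457.23 bases in wild type and 1608.53 and 1882.14 bases in mutant, so both mutant libraries exceeded both wild-type ones. The mutant values lay farther apart than the gap between the groups. The mean was 1.20 times the wild-type mean, and 8.24% of the 15025 tested genes with more than 1 transcript had at least as large a shift in either direction. Length ranges did not overlap between the groups at 39.1% of these genes. RIOK2 has 7 annotated transcripts, from 399 to 3922 bases, and the longest coding one is the 3922-base form. RIOK2 had 28.7 and 34.0 TPM in wild type and 27.6 and 21.4 TPM in mutant. Its mean CPM, which uses no length, was also lower in mutant, at 46.9 against 57.3. The log2 fold change of RIOK2 was -0.54 with effective length offsets (edgeR adjusted p = 0.121) and -0.29 without them. Mean lengths of RGMB, LNPEP and CHD1 changed less, by factors of 0.946, 1.03 and 1.05. The length ranges of the groups did not overlap at RGMB and CHD1 either, and they overlapped at LNPEP.

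GENCODE release 29 places 72 genes with a start within 2 Mb of the LIX1 start. Of these 22 were tested, and the other 50 had at most 10 counts in any library, 27 of them none at all. Leaving out LIX1 and LIX1-AS1, 1 of the 20 tested neighbours was called higher and none lower, or 5.00%, against 5.81% over all tested genes; 6 had an unadjusted p under 0.05. That share is close to the background. The median log2 fold change of the 20 was -0.28, against -0.006 over all tested genes. Within 1 Mb none of 7 was called, with 2 at an unadjusted p under 0.05 and a median of 0.05, and within 5 Mb 1 of 32 was called.

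The neighbour that was called is MCTP1, a calcium-binding membrane protein gene at 1858.3 kb on the LNPEP side. It was at 1.32 and 0.736 CPM in wild type against 3.37 and 4.08 CPM in mutant, a log2 fold change of 1.85 (SE 0.36, edgeR adjusted p = 0.0492). The call was lost without NIPBLmut replicate 1 (1.98, adjusted p = 0.0629) or replicate 2 (1.71, 0.172), and also with upper-quartile scaling, the stricter filter and limma-trend on TPM. PCSK1, a convertase that cuts prohormones, starts 708.7 kb away on the same side. It had no counts in wild type and 10 and 11 counts in mutant, 0.296 and 0.316 CPM, at least 3.10-fold higher than 3 counts per library. Its edgeR adjusted p of 0.0516 missed the threshold, which it passed with total counts (0.0471), without a filter (0.0309) and with the replicate block (0.0111). The median of the 20 neighbours was the same with PCSK1 at its bound.

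None of the other genes on that side was called. The calpain inhibitor gene CAST had 0.07, and the antigen-trimming aminopeptidase genes ERAP1 and ERAP2 had 0.09 and 0.05 as log2 fold changes, with edgeR adjusted p from 0.625 to 0.916. ERAP2 spread widely in wild type, at 27.3 and 15.3 CPM, with 22.1 and 22.2 CPM in mutant. The elongation factor gene ELL2, a subunit of the super elongation complex, had -0.33 (SE 0.15, adjusted p = 0.214). TTC37, ARSK, RFESD, RHOBTB3 and GLRX lay between -0.36 and 0.01. SPATA9 had -0.92 (SE 0.29, adjusted p = 0.108), and the pseudogenes HSPD1P11 and AC008592.3 had -0.45 and -0.997 on few counts. The other tested antisense genes in the window were not called: RGMB-AS1 had -0.71 (SE 0.38, adjusted p = 0.276) and AC009126.1, at LNPEP, -0.33 (SE 0.39, adjusted p = 0.612).

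**Figure D3:**
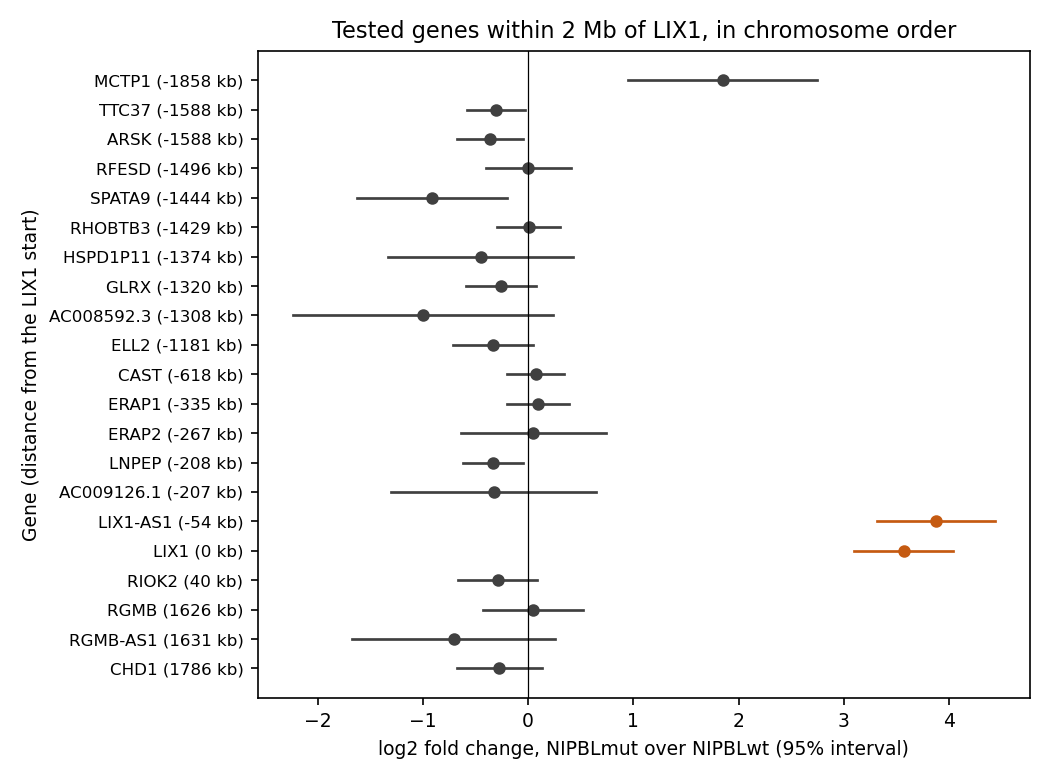
Log2 fold change (NIPBLmut over NIPBLwt) with its 95% interval from the edgeR fit for tested genes within 2 Mb of LIX1, in chromosome order with the distance of each start in kb; PCSK1, with no counts in NIPBLwt, is left out. LIX1 (3.57) and LIX1-AS1 (3.87) stand apart from RIOK2 (-0.29) and LNPEP (-0.33) beside them.

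Farther out, the nearest called gene above RIOK2 was SLCO4C1, an organic anion transporter gene, 5153.7 kb from LIX1. It was at 4.32 and 4.28 CPM in wild type against 9.32 and 11.2 CPM in mutant (log2 fold change 1.26, SE 0.19, edgeR adjusted p = 0.0354). Beyond MCTP1 the next on the other side was MEF2C, a transcription factor gene of muscle and neurons, 8238.6 kb away, lower in mutant at 11.01 and 10.8 against 18.7 and 25.7 CPM (-1.02, SE 0.19, adjusted p = 0.0449). Both calls were lost without NIPBLmut replicate 1 (adjusted p = 0.0703 and 0.102) or replicate 2 (0.231 and 0.134), and with limma-trend on TPM (0.0518 and 0.107); that of MEF2C was also lost with effective length offsets (0.0634). Over the 25 nearest tested protein-coding genes on each side, LIX1 left out, the median log2 fold change was -0.23 on the LNPEP side and 0.03 on the RIOK2 side, with 2 of 25 called on each. Over chromosome 5 the median was -0.008, and 56 of the 824 tested genes other than LIX1 and LIX1-AS1 were called. Over all tested genes 5.81% were called and the median was -0.006, so neither count is read as a result about the flanks or the chromosome.

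**Figure D4:**
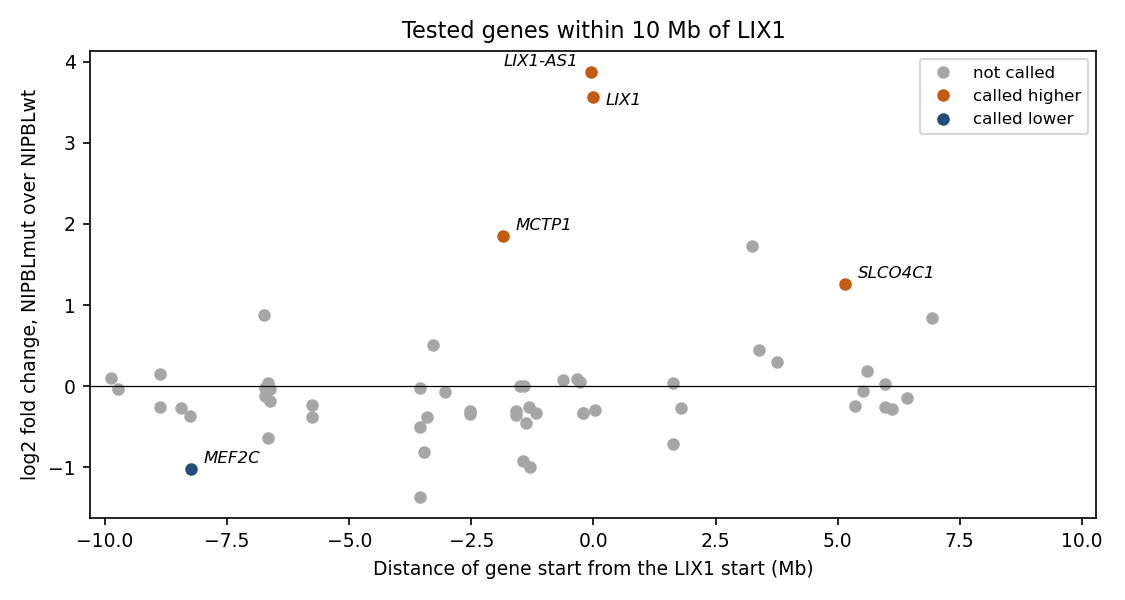
Log2 fold change (NIPBLmut over NIPBLwt) of tested genes within 10 Mb of LIX1 against the distance of their start in Mb; colour marks edgeR calls, and genes with no counts in a group are left out. LIX1 and LIX1-AS1 lie at the centre at 3.57 and 3.87, and MCTP1 (1.85), SLCO4C1 (1.26) and MEF2C (-1.02) are the other called genes.

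Most antisense partners of rising coding genes were not called with them. Among 38 tested non-coding genes that overlapped the span of another coding gene called higher on the opposite strand, 3 were also called higher, or 7.89%, and none lower. Where the pair shared no exon bases, as LIX1 and LIX1-AS1 do, 1 of 14 was called higher, or 7.14%. Where the coding partner was not called, 9 of 902 were higher, or 0.998%. Over all tested genes 3.71% were called higher. The shares of 7.89% and 7.14% rest on 3 genes and 1 gene, so they are not read as above that of all tested genes. The counts of pairs are a description, and no test of their difference was run.

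Genes that start from a level like that of LIX1 were counted beside it. Of 1553 tested protein-coding genes between 1.09 and 4.38 CPM in wild type, within 2-fold of LIX1, 130 were called higher (8.37%) and 11 lower. Over all tested genes 3.71% were called higher and 2.1% lower. The median log2 fold change of the 1553 was 0.39, against -0.006 over all tested genes. The fold change was as large as that of LIX1 in 2 of the 1553, CHIT1 and HAS2, which were named after their values were seen. LIX1 was chosen for its rise, so this places it and tests nothing.

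The genes whose pattern over the 4 libraries was most like that of LIX1 lie on other chromosomes. Likeness was the Euclidean distance over log2(CPM + 0.5) in 4 libraries, among 14450 tested protein-coding genes. The nearest was SYT9, a synaptotagmin of vesicle release on chromosome 11, at a distance of 0.835, with 1.84 and 2.11 CPM in wild type against 18.0 and 16.7 CPM in mutant. PAK3, a kinase of neurons on chromosome X, followed at 1.0, and CHGB, a granin of secretory vesicles on chromosome 20, at 1.09. BEX5 (chromosome X) and KIAA0040 (chromosome 1) were both at 1.21. LIX1-AS1, at a lower CPM, was at 2.17. With 4 libraries in 2 groups, any gene of similar low and high levels comes out as alike.

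Lists of relatives and partners of the 7 genes are set beside the share of all tested genes that edgeR called, 5.81%, of which 3.71% were higher and 2.1% lower. Of 20 genes of the YAP1 pathway, the co-activators, their TEAD partners and common targets, all 20 were tested, none was called higher and 1 lower, a share near that of all tested genes. That gene was PTPN14, a phosphatase that restrains YAP1, at 41.8 and 42.0 CPM in wild type against 26.9 and 25.9 CPM in mutant (log2 fold change -0.67, SE 0.11, edgeR adjusted p = 0.0373). It lost its call with either mutant library left out (adjusted p = 0.273 and 0.367). The same held with total counts (-0.50, 0.0571), effective length offsets (-0.60, 0.0527) and limma-trend on TPM (-0.31, 0.213). The target AXL had 1.31 (SE 0.53) and the partners TEAD3 and TEAD4 had 0.28 and -0.40, with adjusted p from 0.175 to 0.426. The list median was -0.12.

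None of the 11 partners of RIOK2 in small-subunit maturation was called, where the 5.81% over all tested genes would come to less than 1 gene, and their median was -0.18. The kinase RIOK3 had -0.21, and the factor TSR1 had -0.45 with wild-type libraries far apart, at 142 and 246 CPM against 145 and 140 CPM in mutant. The endonuclease NOB1 and the kinase CSNK1D had 0.05 and 0.06. All 4 had adjusted p from 0.251 to 0.815. None of the 10 aminopeptidases related to LNPEP was called either (median -0.07), and the same share applies. The members of smallest p in each direction were LTA4H at -0.37 and RNPEP at -0.22 below 0, and ANPEP at 0.93 and TRHDE at 0.54, on few counts, above it.

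In the pathway of RGMB 22 of 24 genes were tested, and 1 was lower and none higher, near the 5.81% over all tested genes, with a median of -0.31. SMAD6, an inhibitor of bone morphogenetic protein signalling, was at 54.2 and 69.7 CPM in wild type against 30.6 and 25.6 CPM in mutant (log2 fold change -1.14, SE 0.17, edgeR adjusted p = 0.0358; -1.02 and 0.0825 without NIPBLmut replicate 2). On TPM its adjusted p was 0.0530. The receptor gene ACVR2A had -0.68, the ligand gene BMP6 0.52 and the RGMB relative RGMA 0.39, with adjusted p from 0.0648 to 0.213. Of the 8 other CHD remodellers CHD7 alone was called, beside the same 5.81%, and was lower at 68.9 and 72.6 against 48.7 and 46.4 CPM (-0.57, SE 0.11, edgeR adjusted p = 0.0478). That call was lost when either mutant library was left out (adjusted p = 0.378 and 0.512), with RLE, upper-quartile or total count scaling and with effective length offsets (-0.09), and its direction turned on TPM (0.09). The deposited length of CHD7, for which TPM corrects, was 5591.3 and 5636.62 bases in wild type and 3921.19 and 4185.17 bases in mutant. CHD4 had -0.58 (adjusted p = 0.0769), CHD5 1.39 (0.0801) and CHD9 0.20 (0.306), and the list median was -0.05.

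NIPBL itself was at 41.8 and 44.5 CPM in wild type against 61.0 and 62.0 CPM in mutant, which does not check the labels since the mutation is not described. All 12 markers listed for the 293FT line were tested, 1 higher and 3 lower, against 3.71% and 2.1% over all tested genes. Their summed level was 1210 to 1370 CPM in the NIPBLwt libraries and 862 to 919 CPM in the NIPBLmut libraries. NEFM fell most, from 72.75 and 63.86 CPM in NIPBLwt to 1.33 and 0.83 CPM in NIPBLmut. Its log2 fold change of -5.98 (edgeR adjusted p = 0.0086) was larger in size than the 3.57 of LIX1. LIN28B was also lower (-1.20, adjusted p = 0.0369) and KRT8 higher (0.83, 0.029). PAX2, on few counts, was not called (0.42, 0.62). Markers of fibroblast, endothelial, blood and smooth muscle cells changed in both directions. Of 14 such genes 10 passed the filter, 3 higher (CD74, LUM and MYH11, the last 1 a smooth muscle myosin) and 1 lower, against 3.71% and 2.1% over all tested genes, with a median of 1.57. CD74 had a log2 fold change of 4.21 (edgeR adjusted p = 0.029), on 2 and 3 counts in wild type against 39 and 70 in mutant. MYH11 had 2.695 (adjusted p = 0.0289). The lower one was COL3A1, a fibrillar collagen of fibroblasts (log2 fold change -2.04, edgeR adjusted p = 0.0452). LYZ, a lysozyme of blood cells, was not called at -1.12 (adjusted p = 0.155). The summed level of all 14 was between 11.6 and 20.7 CPM in wild type and between 28.5 and 31.8 CPM in mutant. DCN, PECAM1, CDH5 and PTPRC did not pass the filter. The part of the line markers and of these cell type markers in the LIX1 result was not tested.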

How the data were processed

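The submitters' processing notes list hg38, STAR 2.7.3a and RSEM 1.3.1. The annotation release is not given in the sources used here. The authors deposited 1 table per library with expected counts (RSEM's estimated reads per gene, not always whole), TPM and isoform-weighted lengths. Of 58174 identifiers, 57836 were found in GENCODE release 29 (GRCh38), which gave symbols and coordinates.

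Expected counts were rounded and fitted with edgeR 4.0.16 in R 4.3.3 (filterByExpr by group, TMM scaling, robust quasi-likelihood test of NIPBLmut against NIPBLwt, 2 libraries each), with Benjamini-Hochberg adjustment over 18984 genes and a threshold of 0.05. Standard errors come from the F statistic. DESeq2 1.42.0 and limma 3.58.1 were alternatives, with other scalings, filters, length offsets, a replicate block and each library left out. Same-numbered libraries were checked for pairing: their deviations correlated at -0.0594 across genes, so the numbers were not taken as pairs.

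The genes and lists were chosen with earlier results of these data known. Named genes are the 7 of the locus, NIPBL, tested genes within 2 Mb of LIX1, up to 4 genes per list with the smallest p (at most 2 per direction) and the 5 genes most like LIX1. Outside this rule LUM was named as a called marker, and SLCO4C1 and MEF2C as the next called genes along the chromosome. CHIT1 and HAS2 were named at the matched wild-type level. Lists cover the YAP1 pathway, small-subunit maturation, the RGMB pathway, M1 aminopeptidases, CHD remodellers, markers of the 293FT line and of other cell types. The strand check, the antisense pairs, the length shifts and the comparison at matched wild-type level were added after the data were seen.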

Additional observations from a re-analysis of the deposited data

How the results depend on the processing

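LIX1 kept its direction in all 15 alternatives run, with log2 fold changes from 2.25 on log2(TPM + 1) to 3.77 without NIPBLwt replicate 2, and LIX1-AS1 in all 14 run for it (2.36 to 4.04). None of RIOK2, LNPEP, RGMB, CHD1 and LIX1L was called in any alternative that kept both wild-type libraries. RGMB ranged from -0.15 to 0.25 with 1 library left out: it turned to -0.15 without NIPBLwt replicate 2 and to -0.10 without NIPBLmut replicate 1, and CHD7 to 0.09 on log2(TPM + 1) and 0.10 on log2(TPM + 0.1); the cause was not tested. Over all genes 1103 were called, against 1918 with no filter, 2500 with DESeq2, 2279 with the replicate block, and 399 to 11840 with 1 library left out. The highest counts came without 1 wild-type library, where the spread is taken from the mutant pair alone, and the lowest without 1 mutant library. Within 2 Mb of LIX1, 1 neighbour was called, against 2 with total counts, with no filter and with the replicate block (MCTP1 and PCSK1), 0 with upper-quartile scaling, the stricter filter, log2(TPM + 1), log2(TPM + 0.1) and the window of 1 Mb, and 0 to 12 with 1 library left out. The block changed no call of the 7 genes, and LIX1 had 3.58 with it. Depth limits what can be said of the 50 untested neighbours, which had at most 10 counts.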
